A study of Mus musculus with 13 samples.

Results

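The Hox genes were followed by cluster and by paralogue number across mouse fibroblasts, fibroblast-derived hepatocyte-like cells and cultured hepatocytes. Members were all array probes whose only gene symbol was Hoxa, Hoxb, Hoxc or Hoxd with a number, and the probes of a gene were averaged on the log2 scale. This gave 37 of 19087 measured genes, from 57 probes, with 10 in the Hoxa cluster on chromosome 6, 10 in Hoxb on chromosome 11, 8 in Hoxc on chromosome 15 and 9 in Hoxd on chromosome 2. Paralogues 1 to 4 are called anterior (11 genes), 5 to 8 central (11) and 9 to 13 posterior (15, of which 10 lie in clusters A to C).

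RNA came from 13 cultures, each on 1 one-colour array, and all of them, the controls included, were p19Arf-null on a C57BL/6-129 background. The iHep group (4 arrays) consists of hepatocyte-like cells, each sample grown from a single colony of tail-tip fibroblasts infected with lentiviruses for 3 liver-enriched transcription factors, at day 21. The hepatocyte group (4 arrays) holds primary hepatocytes cultured for 21 days, and both groups were kept in modified Block's medium. TTF + 3TF (1 array) is the infected tail-tip culture at day 21 as a mixture of fibroblasts and epithelial cells. MEF (1 array) are embryonic fibroblasts and TTF (3 arrays) tail-tip fibroblasts, both at day 42 in DMEM with 10% serum. Day and medium therefore cannot be told apart from cell type in comparisons of iHep, hepatocytes and TTF + 3TF with TTF, whereas MEF and TTF shared both. Nothing in the labels ties replicates to separate animals, so each p-value rests on array-to-array spread, which may be technical.

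Hox genes encode homeodomain transcription factors that give cells their position along the head-to-tail axis. Within a cluster, genes with low numbers are switched on early and in anterior tissue, and genes with high numbers late and toward the tail, in the order in which they lie on the chromosome. Fibroblasts taken from different body sites keep the Hox pattern of their site in culture. The liver buds from the anterior gut, ahead of the domains of the posterior genes.

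A level is a scaled intensity, that is the deposited intensity after every array was brought to the same 75th percentile. Averages are taken on the log2 scale. A probe was above the limit of measurement on an array when it exceeded 3 times the lowest value among its neighbours in the table, a limit with a median between 8.50 and 31.4 scaled units over the arrays and highest on iHep replicate 2. Differences are on the log2 scale, each with its standard error (SE), from 1 limma model over the iHep, hepatocyte and TTF arrays. Genes with a Benjamini-Hochberg adjusted p under 0.05 over 19087 genes and a change of at least 2-fold are called higher or lower.

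Several arrays stood apart from others of their group. The rank correlation over features was 0.984 between TTF replicates 2 and 3. For TTF replicate 1 it was 0.947 and 0.946 with these and 0.961 with the MEF array. It was 0.950 between iHep replicates 1 and 2 and 0.978 between 3 and 4, against 0.886 to 0.919 across these pairs. On hepatocyte arrays it was 0.980 (1 and 2) and 0.974 (3 and 4), against 0.940 to 0.949 across. The 9 fibroblast markers, with Col1a1 the brightest, summed to 2877, 772, 23228 and 37869 on iHep replicates 1 to 4 and to 19501, 12320.3, 312771 and 233057 on hepatocyte replicates 1 to 4, against 354567 to 459784 on the TTF arrays. All 9 were above the limit on each hepatocyte and TTF array and on iHep replicates 3 and 4, and 8 of 9 on iHep replicates 1 and 2. In iHep 5 of the 9 were called lower than in TTF and 0 higher (median difference -5.47). In hepatocytes 1 was called higher than in TTF (Lum), 1 lower (Twist1) and 7 were not called (median -2.47). In iHep against hepatocytes 5 were lower, Lum and Twist1 among them. The fibroblast sums therefore do not show how each marker moved, and the other marker sums given below have the same limit. The 5 stellate cell markers summed to 31.7 to 98.0 on iHep arrays, 1338 to 3641 on hepatocyte arrays and 56.5 to 84.5 on TTF arrays. All 8 hepatocyte markers were called higher than in TTF both in iHep and in hepatocytes. Of 5 macrophage and leukocyte markers, 5 were called higher in hepatocytes than in TTF (median difference 5.74) and 2 in iHep than in TTF, and 4 were lower and 1 higher in iHep than in hepatocytes. Of 6 endothelial markers, 5 were higher in hepatocytes than in TTF (median 3.12) and 1 in iHep than in TTF, and 3 were lower in iHep than in hepatocytes. Of 5 simple epithelium markers, 5 were higher in iHep and 4 in hepatocytes than in TTF, and of 3 biliary markers 1 was higher in each. Of 5 keratinocyte markers, 1 was higher in hepatocytes than in TTF. In such bulk samples fewer cells of a type and less RNA per cell cannot be told apart.

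Promoter windows of 4 members are shown because these genes carry the contrasts described further on, and they were chosen after the values were seen. Hoxa2 (gene ID 15399) is an anterior gene with high levels on hepatocyte replicates 3 and 4, Hoxa7 (15404) a central gene and Hoxa10 (15395) a posterior gene called lower in hepatocytes, and Hoxd4 (15436) the one member called higher in hepatocytes than in TTF. The RefSeq windows (GRCm38.p6) run from 250 bases before to 50 after a transcript start, read 5′ to 3′ on the gene's strand. They lie at chr6:52164782-52165081 on the minus strand for Hoxa2, chr6:52218524-52218823 on the minus strand for Hoxa7, chr6:52234890-52235189 on the minus strand for Hoxa10 and chr2:74721728-74722027 on the plus strand for Hoxd4. Capitals mark matches on either strand to TTTATG (a Cdx-type motif), AGGTCA (a nuclear receptor half-site), TATAAA (the TATA box) and CCAAT (the CCAAT box).
Hoxa2: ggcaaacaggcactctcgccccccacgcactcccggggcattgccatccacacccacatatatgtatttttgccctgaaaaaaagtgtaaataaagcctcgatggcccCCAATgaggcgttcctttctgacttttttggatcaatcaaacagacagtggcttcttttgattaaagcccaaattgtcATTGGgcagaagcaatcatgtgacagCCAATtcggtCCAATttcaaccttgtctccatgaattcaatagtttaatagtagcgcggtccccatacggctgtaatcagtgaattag
Hoxa7: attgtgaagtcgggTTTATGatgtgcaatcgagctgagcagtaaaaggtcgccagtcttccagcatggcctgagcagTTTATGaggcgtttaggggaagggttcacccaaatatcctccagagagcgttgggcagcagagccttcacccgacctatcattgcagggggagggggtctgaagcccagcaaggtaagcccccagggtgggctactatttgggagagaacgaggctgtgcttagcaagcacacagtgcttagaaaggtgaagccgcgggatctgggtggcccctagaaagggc
Hoxa10: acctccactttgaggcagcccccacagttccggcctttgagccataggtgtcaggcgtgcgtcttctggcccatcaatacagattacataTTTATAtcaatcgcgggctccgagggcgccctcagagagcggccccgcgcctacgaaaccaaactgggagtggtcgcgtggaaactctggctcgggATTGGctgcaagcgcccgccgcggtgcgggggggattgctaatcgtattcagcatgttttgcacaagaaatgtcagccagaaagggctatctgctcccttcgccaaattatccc
Hoxd4: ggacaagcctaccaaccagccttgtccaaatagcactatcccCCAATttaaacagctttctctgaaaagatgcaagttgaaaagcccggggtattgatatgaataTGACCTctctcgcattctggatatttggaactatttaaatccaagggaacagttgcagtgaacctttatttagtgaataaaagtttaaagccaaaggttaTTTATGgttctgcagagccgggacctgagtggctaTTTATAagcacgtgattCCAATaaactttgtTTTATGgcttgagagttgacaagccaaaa
The Hoxa2 window holds 4 CCAAT matches and no other, the Hoxa7 window 2 TTTATG matches, and the Hoxa10 window 1 TATAAA and 1 CCAAT match. The table has a further Hoxa10 window, at chr6:52240805-52241104, which holds none of the 4 motifs and is not shown. The Hoxd4 window holds 2 TTTATG, 1 AGGTCA, 1 TATAAA and 2 CCAAT matches.

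The table held 24 windows for 22 of the 37 members, Hoxa10 and Hoxd11 having 2 each. TTTATG was found in 20.8% of the Hox windows and in 11.9% of all 32851 windows of that length. AGGTCA was in 29.2% of the Hox windows against 16.3% of all, TATAAA in 16.7% against 13.6% and CCAAT in 62.5% against 37.4%. Matches of different motifs overlapped in 1 window, that of Hoxd3. The median number of CpG dinucleotides was 14.5 (range 4 to 45) in the Hox windows and 7 (range 0 to 67) in all windows.

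**Figure D1:**
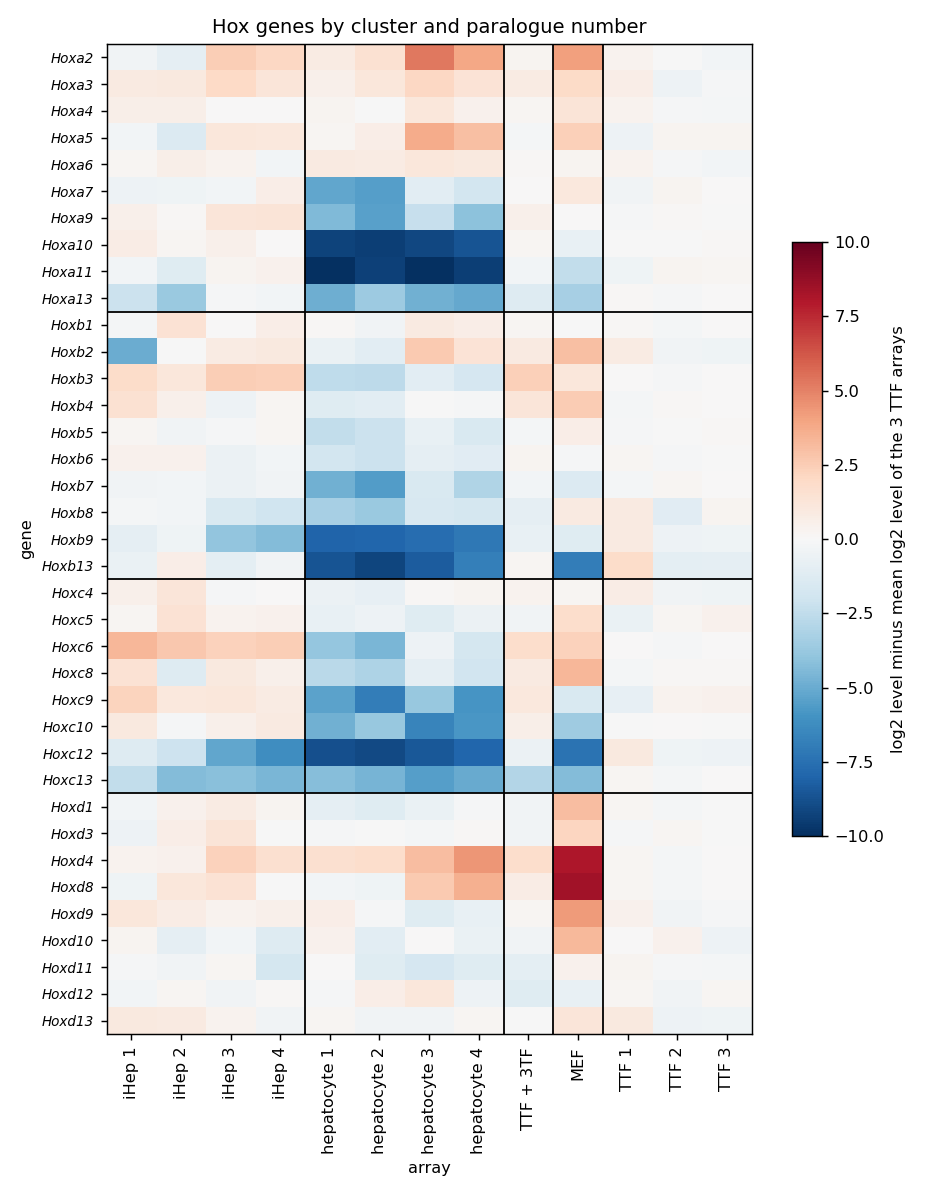
Level of each of 37 Hox genes (rows, by cluster and paralogue number) on each of 13 arrays (columns, by group), as log2 level minus the mean log2 level of the 3 TTF arrays (red higher, blue lower). The posterior genes of Hoxa, Hoxb and Hoxc are deep blue on the 4 hepatocyte arrays, and Hoxd4 and Hoxd8 are the darkest red cells, on the MEF array.

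The clusters differed in how many genes were well above the limit. In Hoxa to Hoxc, 8 of 10 posterior genes lay above 10 times the limit on each iHep array, none on hepatocyte replicates 1, 2 and 4, 2 on hepatocyte replicate 3, 9 on the TTF + 3TF array, 5 on the MEF array and 10 on each TTF array. In the Hoxd cluster the count was 0 of 9 on each iHep, hepatocyte, TTF + 3TF and TTF array and 4 of 9 on the MEF array. Outside the MEF array, Hoxd differences therefore rest on levels under 10 times the limit. There 1 to 8 of the 9 genes were above the limit itself, depending on the array.

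Setting iHep beside TTF asks in what the colonies differ from the kind of culture they were made from. Of the 37 Hox genes, 1 was higher in iHep (Hoxb3) and 2 lower (Hoxc12 and Hoxc13), and 34 were not called. Over all genes tested, 6.86% were called higher and 6.52% lower. The median difference was 0.31 over the Hox genes, or 0.13 with genes at the limit set to their bound, against 0.07 over all genes. The groups did not overlap for 9 of the 37, against 26.4% of all genes.

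Most posterior genes of clusters A to C were well above the limit in iHep and were not called against TTF. Hoxa10, which patterns the lumbar spine and the uterus, had 4730.0, 3302, 3979 and 2904 on the iHep arrays and 2748, 2737 and 3029 on the TTF arrays. The groups overlapped through iHep replicate 4. The difference was 0.37 ± 0.27 (SE, n = 4 and 3, 95% interval -0.23 to 0.97, limma adjusted p = 0.44). Hoxa11, needed for the forearm and the kidney with its paralogues, had 6384, 3371, 9257 and 10362 on iHep arrays and 5849, 9351 and 8724 on TTF arrays, which overlapped. Its difference was -0.21 ± 0.49 (95% interval -1.29 to 0.86). Hoxb13, a tail and prostate gene, had 2101, 5328, 1746 and 2657 on iHep arrays and 12359.6, 1718 and 1870.0 on TTF arrays, where TTF replicate 1 lay far above both others. Hoxc9, a thoracic gene that acts in motor neuron identity, had 9034, 4122, 4314 and 3529 on iHep arrays and 1137, 2557 and 2646 on TTF arrays. All iHep values lay above all TTF values, but the difference of 1.31 ± 0.65 (95% interval -0.13 to 2.74, limma adjusted p = 0.24) was not called.

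Hoxc13, needed for hair and nail keratin expression, had 46.9, 12.2, 13.8 and 10.7 on the iHep arrays and 288, 218 and 253 on the TTF arrays. No iHep value came near the TTF values, and 2 of 4 iHep arrays were above the limit. It fell by 3.88 ± 0.50 on the log2 scale in iHep (SE, n = 4 and 3, limma adjusted p = 0.00056) and kept this call in all 25 alternatives run (other scalings, filters and fits, and arrays left out). Hoxc12, its neighbour in the cluster, had 733, 432, 51.1 and 24.6 on iHep arrays and 3564, 1339 and 1281 on TTF arrays. iHep replicates 3 and 4 were much lower than 1 and 2, and all 4 lay below the TTF arrays. It fell by 3.69 ± 1.03 (limma adjusted p = 0.037), but the call ended in 15 alternatives (adjusted p between 0.051 and 0.12), among them without any 1 of the TTF or hepatocyte replicates and without iHep replicate 3 (-3.20) or 4 (-2.85).

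Hoxb3, an anterior gene of the hindbrain and throat region, had 700.4, 426, 1066 and 1018 on the iHep arrays and 198, 182 and 204 on the TTF arrays. The groups did not overlap. It rose by 1.96 ± 0.43 (SE, n = 4 and 3, limma adjusted p = 0.012), and the call ended in 3 alternatives, among them without TTF replicate 2 (1.91, adjusted p = 0.052) and with iHep replicates 1 and 2 alone (1.49, adjusted p = 0.079). Hoxc6, a thoracic gene, had 12789, 8215, 6293 and 7172 on iHep arrays and 1313, 1209 and 1309 on TTF arrays. Every iHep value lay above every TTF value. The difference of 2.70 ± 0.81 (95% interval 0.91 to 4.49, limma adjusted p = 0.05) did not pass the threshold, and it did in 9 alternatives, among them without hepatocyte replicate 2 (adjusted p = 0.024) or 3 (0.013).

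A further pair of posterior genes differed between colonies. Hoxb9, which patterns the ribs, had 4973, 6949, 585 and 462 on the iHep arrays and 17266, 6564 and 6792 on the TTF arrays. iHep replicates 3 and 4 were far below the TTF arrays, whereas replicate 2 lay inside their range. The difference was -2.39 ± 0.90 (95% interval -4.37 to -0.41, limma adjusted p = 0.11), and it passed without iHep replicate 2 (-3.05, adjusted p = 0.032). Hoxa13, a gene of the digits and the hindgut end, had 68.1, 22.9, 274 and 241 on iHep arrays and 319, 275 and 298 on TTF arrays. Here replicates 1 and 2 were the low ones, and replicates 3 and 4 lay just under the TTF range. Its difference was -1.56 ± 0.76 (95% interval -3.24 to 0.12, limma adjusted p = 0.23), and it was called with iHep replicates 1 and 2 alone (-2.91, adjusted p = 0.0086). Several marker sums split the colonies between the same pairs, though a sum follows its brightest markers and does not show how each moved. The fibroblast sums of iHep replicates 3 and 4 were above those of 1 and 2, as given above. The simple epithelium markers summed to 95261, 175886, 552204 and 531867 on iHep replicates 1 to 4, the biliary markers to 87839, 105601, 256098 and 277341, and the endothelial markers to 748, 429, 3035 and 4155. Hepatocyte sums were also higher on replicates 3 and 4. Stellate sums were lower there but near the limit on all iHep arrays, with 4, 2, 4 and 3 of 5 markers above it on replicates 1 to 4. The macrophage and leukocyte sums (25182, 62672, 30107 and 43349) and the keratinocyte sums (286, 526, 423 and 550) did not split this way. The part of any of these cell types in the differences between colonies was not tested.

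**Figure D2:**
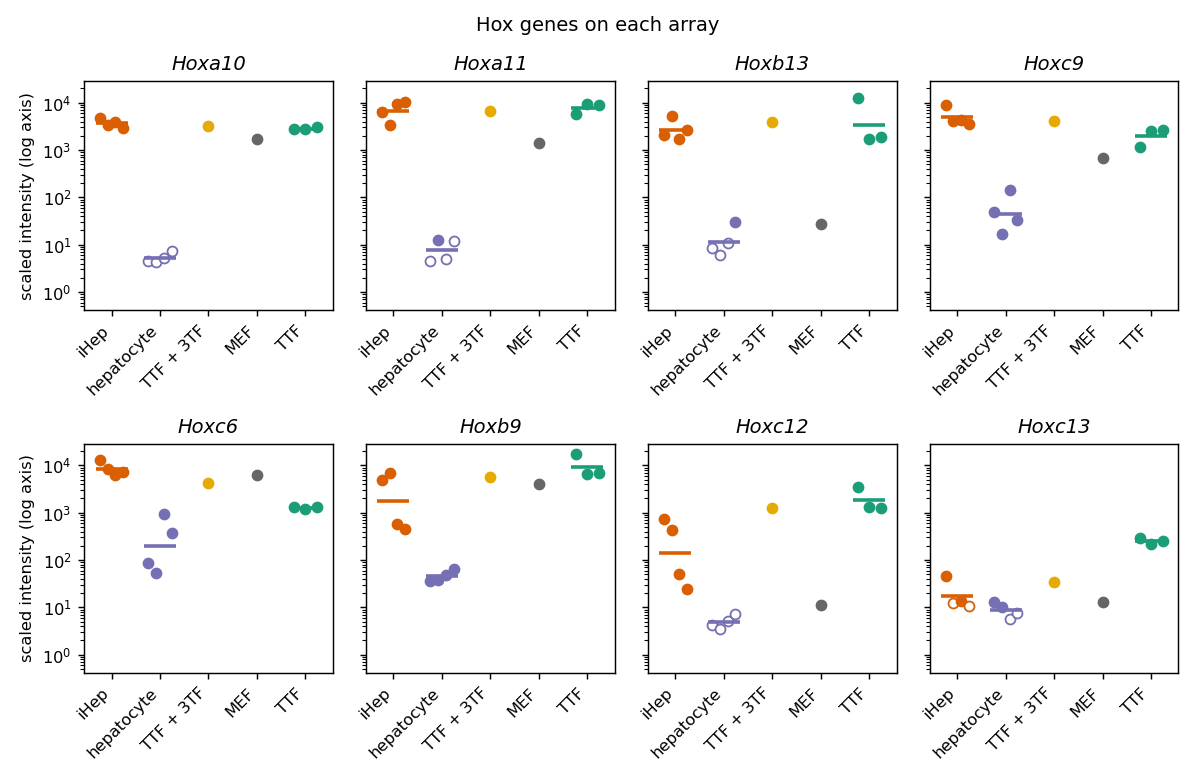
Scaled intensity (log axis) of 8 Hox genes on each array by group, 1 point per array, open where no probe of the gene was above the limit of measurement, and a bar at the geometric mean of groups with several arrays. Hoxa10, Hoxa11 and Hoxb13 overlap the TTF arrays in iHep and lie far below them in hepatocytes, Hoxc9 lies above the TTF arrays in iHep and far below them in hepatocytes, and Hoxc13 is low in both.

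The comparison of cultured hepatocytes with TTF asks where the Hox genes of primary liver cells differ from those of tail fibroblasts. Of the 37 genes, 16 were lower in hepatocytes, against 4.91% of all genes, and 1 was higher, against 7.47% of all genes. All 10 posterior genes of clusters A to C were lower, by 4.07 to 10.01 log2 units with a median of -6.57, or -6.27 with the genes at the limit set to their bound. All 5 posterior Hoxd genes were uncalled by limma, with 0 at an unadjusted p under 0.05. Their TTF means of 5.65 to 22.1 were low, so falls as large as in clusters A to C could not have been seen. Of the central genes 5 of 11 and of the anterior genes 1 of 11 were lower. The median over the 37 genes was -0.99, against 0.07 over all genes, and the groups did not overlap for 21 of them, against 33.1% of all genes.

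Hoxa10 had 4.51, 4.26, 5.12 and 7.21 on the hepatocyte arrays, against the TTF values of 2748 to 3029. No hepatocyte array was above the limit. It was at least 201-fold lower in hepatocytes (limma adjusted p = 3.3e-08). Hoxc12 had 4.20, 3.44, 5.26 and 7.38 on the hepatocyte arrays, all under the limit, and was at least 134-fold lower (adjusted p = 0.00052).

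Hoxa11 had 4.58, 12.4, 4.99 and 11.7 on the hepatocyte arrays, of which 1 was above the limit. It fell by 10.01 ± 0.49 (SE, n = 4 and 3, limma adjusted p = 1.3e-06). Hoxb13 had 8.54, 5.96, 10.9 and 30.2 on the hepatocyte arrays, again with 1 above the limit, and fell by 8.23 ± 0.75 (adjusted p = 8.6e-05). These 2 differences depend on values at the limit. Hoxb9 was measured on all 4 hepatocyte arrays, at 36.4, 38.0, 47.3 and 63.4, and fell by 7.67 ± 0.90 (adjusted p = 0.00043).

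Hoxc9 had 48.8, 16.8, 143 and 33.9 on the hepatocyte arrays, against the TTF values of 1137 to 2646. The highest hepatocyte value was far below the lowest TTF value. It fell by 5.47 ± 0.65 (limma adjusted p = 0.00047). Hoxc10, a lumbar gene, had 21.1, 42.1, 6.01 and 10.4 on hepatocyte arrays, 2 of them above the limit, and 579, 612 and 589 on TTF arrays. It fell by 5.27 ± 0.56 (adjusted p = 0.00023). Hoxc13 had 13.1, 10.3, 5.58 and 7.68 on hepatocyte arrays, 2 of them above the limit, and fell by 4.85 ± 0.50 (adjusted p = 0.00018).

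Hoxa9, a trunk and blood stem cell gene, had 50.6, 24.3, 211 and 60.8 on the hepatocyte arrays and 989.9, 1139 and 1057 on the TTF arrays. It fell by 4.07 ± 0.61 (limma adjusted p = 0.0017), the smallest change among the 10. Hoxa13 had 10.2, 23.8, 10.6 and 8.32 on hepatocyte arrays, with 3 above the limit, and fell by 4.61 ± 0.76 (adjusted p = 0.0031). All 10 of these calls were kept in all 25 alternatives.

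The central genes called lower were Hoxa7, Hoxb5, Hoxb6, Hoxb7 and Hoxb8. Hoxb7, a trunk gene, had 273, 159.5, 2731 and 991 on the hepatocyte arrays and 6941, 8751 and 7910.2 on the TTF arrays. Hepatocyte replicates 3 and 4 were nearest to the TTF arrays without reaching them. It fell by 3.74 ± 0.78 (limma adjusted p = 0.011). Hoxa7, a thoracic gene, had 77.9, 62.3, 1409 and 822 on hepatocyte arrays and 2218, 3536 and 3029 on TTF arrays, with the same 2 hepatocyte arrays highest. It fell by 3.39 ± 0.99 (adjusted p = 0.047), a call that ended in 17 alternatives (adjusted p between 0.052 and 0.14), among them without any 1 of the TTF or iHep replicates and without hepatocyte replicate 1 (-2.79) or 2 (-2.68).

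The other decreases were smaller. Hoxb8, a trunk gene also used in a microglia lineage, fell by 2.59 ± 0.69 (limma adjusted p = 0.033), Hoxb5 by 1.71 ± 0.38 (0.016) and Hoxb6 by 1.50 ± 0.37 (0.025). The anterior gene Hoxb3 had 34.3, 31.6, 93.6 and 59.2 on the hepatocyte arrays and fell by 1.97 ± 0.43 (0.014). These 4 calls ended in 5, 5, 8 and 3 of the alternatives. The largest uncalled differences were those of Hoxa2, Hoxc6 and Hoxc8. Hoxc6 differed by -2.68 ± 0.81 (95% interval -4.47 to -0.89, adjusted p = 0.054) and passed without hepatocyte replicate 3 (-3.42, adjusted p = 0.0063). Hoxc8, a thoracic gene, differed by -2.14 ± 0.66 (95% interval -3.59 to -0.68, adjusted p = 0.057), with 1 hepatocyte array above the limit.

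Hoxd4, an anterior gene of the neck vertebrae, had 23.5, 26.6, 66.1 and 162 on the hepatocyte arrays and 8.80, 6.64 and 7.76 on the TTF arrays. No TTF array was above the limit, and all 4 hepatocyte arrays were. It was at least 4.91-fold higher in hepatocytes (limma adjusted p = 0.025). The call ended in 9 alternatives (adjusted p between 0.05 and 0.36), among them without TTF replicate 1 (0.053), 2 (0.09) or 3 (0.083) and without hepatocyte replicate 3 (0.05).

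**Figure D3:**
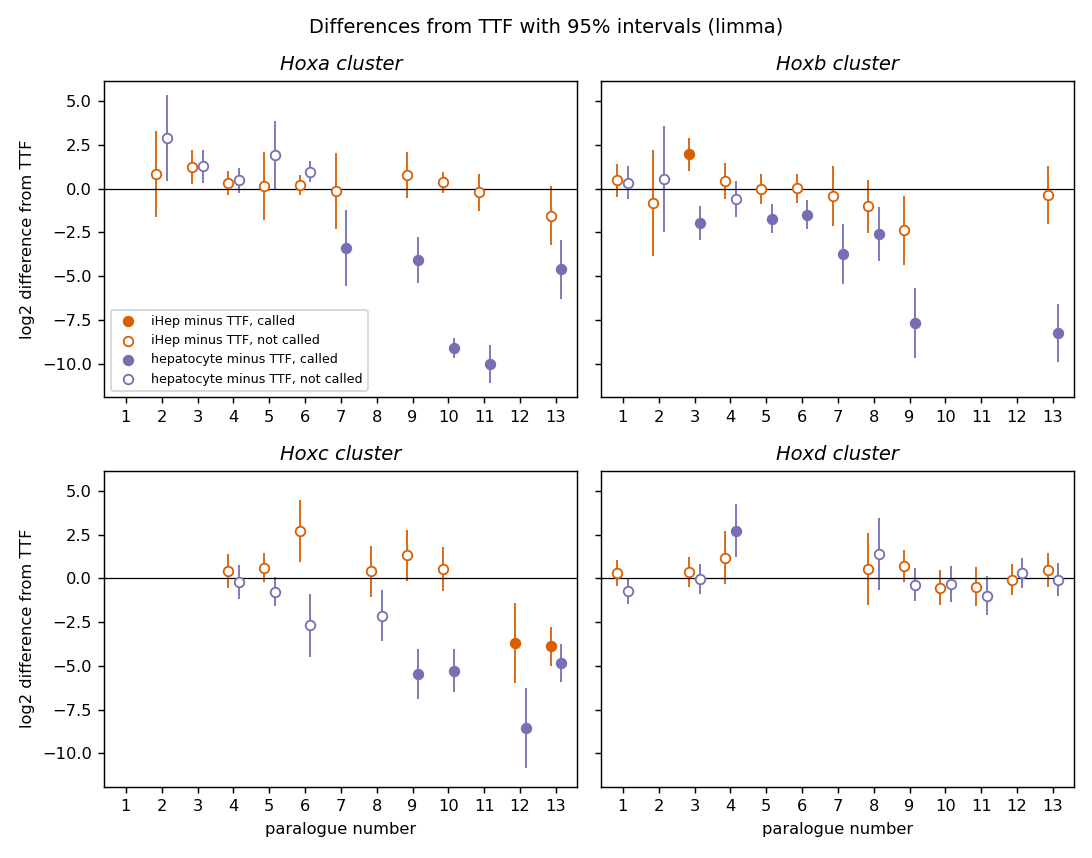
Log2 difference of iHep from TTF (orange) and of hepatocytes from TTF (purple) with 95% limma intervals, by paralogue number in the 4 clusters, filled where called. Both comparisons use the same 3 TTF arrays. In Hoxa, Hoxb and Hoxc the purple points fall far below 0 from paralogue 9 on. In Hoxd, where TTF levels were low, they stay near 0 from paralogue 9 on.

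Most anterior and central genes were higher on hepatocyte replicates 3 and 4 than on replicates 1 and 2. Both values lay above both others for 10 of 11 anterior genes (not Hoxd3) and 10 of 11 central genes (not Hoxc5). The same held for 5 of 15 posterior genes and for 30% of all genes. This order was looked for after the values were seen and with no test. The counts include Hoxd1, Hoxa10 and Hoxc12, which were under the limit on all 4 hepatocyte arrays, and genes under it on some, such as Hoxb1. The median limit was itself higher on replicates 3 and 4 (13.06 and 18.97) than on 1 and 2 (10.69 and 8.54). For levels under the limit, the order therefore cannot be told apart from that of the limits. Hoxa2, the selector gene of the second pharyngeal arch, had 90.7, 146, 2069.8 and 771 on the hepatocyte arrays and 68.0, 49.6 and 42.4 on the TTF arrays. Hoxa5, a gene of the lung and neck, had 198, 274, 2233 and 1377 on hepatocyte arrays and 119, 208 and 205 on TTF arrays. In both genes hepatocyte replicates 3 and 4 were the high ones. The differences from TTF were 2.87 ± 1.11 for Hoxa2 (95% interval 0.41 to 5.32, limma adjusted p = 0.12) and 1.90 ± 0.88 for Hoxa5 (-0.05 to 3.84, adjusted p = 0.19), neither called.

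The same 2 arrays were highest for Hoxb2, at 1881, 1474, 18208 and 7802 on hepatocyte replicates 1 to 4, and for Hoxc6, at 85.9, 53.5, 919 and 372. They were also the 2 hepatocyte arrays with the high fibroblast marker sums. Some other marker sums differed between the same arrays, though a sum follows its brightest markers and does not show how each moved. For the macrophage and leukocyte markers, each iHep sum (25182 to 62672) was above that of hepatocyte replicate 3 (16001). Yet 4 of these 5 markers were called lower in iHep than in hepatocytes and 1 higher (Cd14). On hepatocyte replicates 1 to 4 the stellate cell markers summed to 1338, 2034, 2927 and 3641, the macrophage and leukocyte markers to 120375, 81329, 16001 and 34056, the endothelial markers to 4830, 6745, 827 and 2188, and the simple epithelium markers to 1379130, 1075860, 302468 and 616066. Fibroblast and stellate sums were thus higher on replicates 3 and 4, and the other 3 lower, as were the keratinocyte sums (638, 859, 553 and 514). The hepatocyte sums (741734, 416471, 328453 and 1256550) and the biliary sums (117049, 22292, 33538.5 and 45536) did not split this way. Posterior Hoxa10 lay under the limit on all 4 arrays, whereas posterior Hoxa9 and Hoxb9 were also highest on replicates 3 and 4. The part of any of these cell types in the Hox values was not tested. With hepatocyte replicates 3 and 4 alone, an alternative chosen after the data were seen, 4 Hox genes were higher than in TTF, against 4.18% of all genes in that fit, and 11 lower, against 2.46%. With replicates 1 and 2 alone 18 were lower, against 6.7%.

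**Figure D4:**
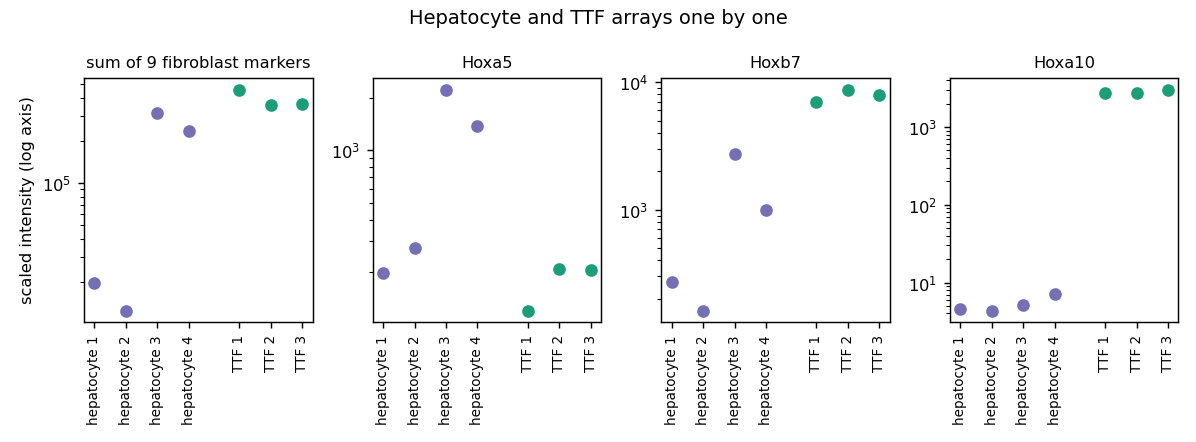
Scaled intensity (log axes, each panel on its own range) of the summed 9 fibroblast markers, Hoxa5, Hoxb7 and Hoxa10 on hepatocyte replicates 1 to 4 and TTF replicates 1 to 3. Hepatocyte replicates 3 and 4 are above replicates 1 and 2 for the marker sum, Hoxa5 and Hoxb7, whereas Hoxa10 is between 4.26 and 7.21 on all 4.

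The direct comparison of iHep with hepatocytes shares its arrays with both comparisons above. Of the 37 Hox genes, 18 were higher in iHep, against 6.25% of all genes, and 0 were lower by limma, against 7.5% of all genes, with 2 lower at an unadjusted p under 0.05. The limma fit with array weights called 2 lower, against 13.2% of all genes in that fit, and that with hepatocyte replicates 3 and 4 alone called 4, against 5.19%. Among posterior genes of clusters A to C, 9 of 10 were higher, Hoxc13 being the exception. The central genes had 7 of 11 higher and the anterior genes 2 of 11. The median over the 37 was 1.04, against -0.02 over all genes, and the groups did not overlap for 16 of them, against 20.9% of all genes.

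Posterior genes held the largest differences. Hoxa10 was at least 260-fold higher in iHep (limma adjusted p = 1.9e-08), Hoxa11 rose by 9.80 ± 0.45 (1.7e-06) and Hoxb13 by 7.88 ± 0.70 (8.6e-05). Hoxc9 rose by 6.77 ± 0.60 (8.6e-05), Hoxc10 by 5.81 ± 0.52 (9.2e-05), Hoxb9 by 5.28 ± 0.83 (0.0025) and Hoxa9 by 4.85 ± 0.56 (0.00044). Of the 4 hepatocyte arrays, 1 was above the limit for Hoxa11, 1 for Hoxb13 and 2 for Hoxc10. The sizes of those differences depend on values at the limit. Hoxc12 was at least 10.3-fold higher (0.0079). Hoxa13 rose by 3.06 ± 0.70 (0.016), although iHep replicate 2, at 22.9, lay below hepatocyte replicate 2, at 23.8. Hoxc13 differed by 0.97 ± 0.46 (95% interval -0.05 to 1.98, adjusted p = 0.18), with 2 of 4 arrays above the limit in each group.

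Among the other genes Hoxc6 differed most, with 6293 to 12789 on iHep arrays and 53.5 to 919 on hepatocyte arrays, and rose by 5.38 ± 0.75 in iHep (limma adjusted p = 0.0013). Hoxb3 rose by 3.93 ± 0.40 (0.00021), Hoxb7 by 3.34 ± 0.72 (0.012) and Hoxa7 by 3.25 ± 0.91 (0.037). Hoxc8, Hoxb5, Hoxb6 and Hoxc5 rose by between 1.37 and 2.55. Hoxd1, an early anterior gene, was called with a difference of 1.03 at an adjusted p of 0.045, but 1 of 4 iHep and 0 of 4 hepatocyte arrays were above the limit, so no fold is given. Of the 18 calls, 9 were kept in all 25 alternatives. Hoxd1 lost its call in 17 of them, Hoxa7 in 15, Hoxc5 and Hoxc8 in 6 each, Hoxa13 and Hoxb6 in 4 each, Hoxc12 in 3, Hoxb5 in 2 and Hoxb7 in 1.

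The largest uncalled differences between iHep and hepatocytes were those of Hoxa2, Hoxa5 and Hoxb8. Hoxa2 had 41.0, 28.7, 288 and 222 on the iHep arrays and differed by -2.04 ± 1.03 (95% interval -4.31 to 0.24, limma adjusted p = 0.21). Hoxa5 had 143, 66.1, 376 and 355 on the iHep arrays and differed by -1.76 ± 0.82 (-3.56 to 0.04, adjusted p = 0.17). In both genes iHep replicates 3 and 4 were above replicates 1 and 2, and the groups overlapped. Hoxb8 differed by 1.58 ± 0.64 (0.17 to 2.99, adjusted p = 0.12).

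The TTF + 3TF culture, read on 1 array and so without a replicate check, was set against the 3 TTF arrays, and a gene counted if it differed from their log2 mean by 2 or more and lay outside their range. Of the 37 genes 1 was past this on the high side, against 6.49% of all genes, and 1 on the low side, against 3.67%. Hoxb3 had 989.5 on the TTF + 3TF array against 182 to 204 on the TTF arrays, a difference of 2.35. Hoxc13 had 33.6 against 218 to 288, a difference of -2.91. Hoxc12 and Hoxb9 lay under the TTF range but were not past the fold. Hoxc12 had 1232 on the TTF + 3TF array against 1281 to 3564 on TTF arrays, a difference of -0.57. Hoxb9 had 5627 against 6564 to 17266, a difference of -0.70. Other genes outside the TTF range differed more without being past the fold, among them Hoxc6 (1.77), Hoxb4 (1.21), Hoxc9 (1.04) and Hoxa13 (-1.31). Over the 10 posterior genes of clusters A to C the median difference was -0.03, against -0.17 over all genes.

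On the MEF array Hoxd and several anterior genes were high and several posterior genes low relative to the TTF arrays. By the same rule, 12 of 37 genes were past the fold on the high side, against 4.02% of all genes, and 6 on the low side, against 2.04%. Of the 12, 6 lay in Hoxd and 0 were posterior genes of clusters A to C, where all 6 of the low ones lay. The median difference was 0.94 over the 37 genes against -0.08 over all genes. In Hoxd it was 3.11, or 2.36 with genes at the limit set to their bound.

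Hoxd8, a central gene, had 1838.5 on the MEF array and 6.30, 4.85 and 5.55 on the TTF arrays, all 3 of them under the limit, so it was at least 136-fold higher. Hoxd4 had 2068 against 8.80, 6.64 and 7.76, also under the limit, and was at least 200-fold higher. Hoxd1 had 69.8 against 7.24 to 9.17, at least 5.13-fold higher. These 3 genes were thus measured on the MEF array and on none of the TTF arrays. Hoxd9 had 299 on the MEF array against 12.3 to 20.6 on TTF arrays, Hoxd10 198 against 14.9 to 27.4, and Hoxd3 54.1 against 10.9 to 13.8. The Hoxd11, Hoxd12 and Hoxd13 levels of 17.5, 13.4 and 13.3 on the MEF array were not past the fold.

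Outside Hoxd, the high genes on the MEF array were Hoxa2 (894 against 42.4 to 68.0 on TTF arrays), Hoxa5 (911 against 119 to 208), Hoxb2 (23747 against 2272 to 5275), Hoxb4 (1429.9 against 221 to 267), Hoxc6 (6256 against 1209 to 1313) and Hoxc8 (281 against 24.2 to 30.3). All 6 are anterior or central. The low genes were Hoxa11 with a difference of -2.46, Hoxa13 with -3.33, Hoxb13 with -6.94, Hoxc10 with -3.58, Hoxc12 with -7.38 and Hoxc13 with -4.30. Hoxb13 had 27.8 on the MEF array against 1718 to 12359.6 on TTF arrays. Hoxa9, at 1115 against 989.9 to 1139, and Hoxa10, at 1702 against 2737 to 3029, were not past the fold.

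**Figure D5:**
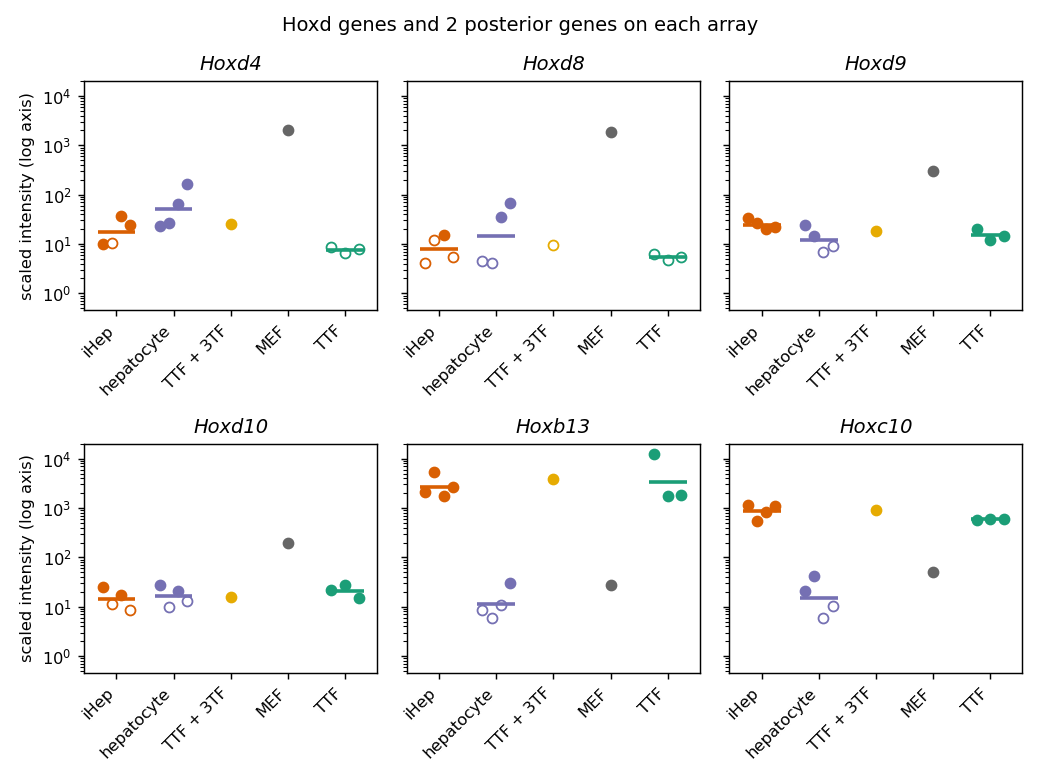
Scaled intensity (log axis) of 4 Hoxd genes, Hoxb13 and Hoxc10 on each array by group, 1 point per array, open where no probe of the gene was above the limit of measurement, with a bar at the geometric mean of groups with several arrays. The single MEF array is highest for the 4 Hoxd genes and lies with the hepatocyte arrays for Hoxb13 and Hoxc10.

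Calls were not shared by all paralogues of 1 number. Of the 4 paralogues 9, Hoxa9, Hoxb9 and Hoxc9 were lower in hepatocytes than in TTF, and Hoxd9 differed by -0.36 ± 0.42 (limma adjusted p = 0.64). Hoxd9 averaged 15.4 in TTF, near the limit, so a fall as large as theirs could not have been seen. Its 2 probes differed by -1.29 and 0.58, both uncalled. Of the paralogues 13, Hoxa13, Hoxb13 and Hoxc13 were lower and Hoxd13 differed by -0.08 ± 0.44 (limma adjusted p = 0.94). Hoxd13 had 1 array above the limit in each group, so a fall could not have been seen there either. Of the paralogues 4, Hoxd4 was called higher, while Hoxa4, Hoxb4 and Hoxc4 differed by 0.47, -0.60 and -0.23. Paralogue 6 split in sign, with Hoxa6 at 0.96 ± 0.27 (adjusted p = 0.039), just short of the 2-fold needed for a call, and Hoxb6 called lower. Hoxa6 had 165, 154, 189 and 177 on hepatocyte arrays and 110.1, 82.9 and 73.8 on TTF arrays, which did not overlap.

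Of the 11 genes with several probes, 0 had probes called in opposite directions. Only some probes were called in 2 of these genes in hepatocytes against TTF (Hoxb6 and Hoxb8) and in 2 in iHep against hepatocytes (Hoxb6 and Hoxd9). One Hoxb6 probe averaged 218 in hepatocytes and 1895 in TTF and fell by 3.12 ± 0.63 (limma adjusted p = 0.0099 over probes), whereas the other averaged 579.6 in hepatocytes and 533 in TTF. One Hoxb8 probe averaged 8.62 in hepatocytes and 134 in TTF (-3.96 ± 0.92, adjusted p = 0.019), and the other, near the limit, 4.57 and 10.6. In iHep against hepatocytes the first Hoxb6 probe averaged 1791 in iHep and 218 in hepatocytes (3.04 ± 0.59, adjusted p = 0.0075), and the other 574 in iHep and 579.6 in hepatocytes. One Hoxd9 probe averaged 84.7 in iHep and 16.5 in hepatocytes and was called higher (2.36 ± 0.47, adjusted p = 0.009), whereas the other averaged 7.26 in iHep and 8.76 in hepatocytes and differed by -0.27 ± 0.44. The Hoxb6, Hoxb8 and Hoxd9 values above are means over such probes.

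The regulators and partners of Hox proteins were mostly uncalled, as were most genes of the table. In iHep against TTF 6.86% of all genes were called higher and 6.52% lower. The shares were 7.47% and 4.91% in hepatocytes against TTF, and 6.25% and 7.5% in iHep against hepatocytes. The Cdx factors are homeodomain proteins that switch on central and posterior Hox genes in the embryo, and Cdx2 is also the selector of intestinal epithelium. Cdx2 had 379, 2808, 384 and 625 on the iHep arrays, 73.6, 9.47, 48.1 and 108 on the hepatocyte arrays and 11.5, 3.19 and 3.80 on the TTF arrays. Each iHep value lay above all hepatocyte and TTF values. It rose by 7.10 ± 0.92 in iHep against TTF (limma adjusted p = 0.00059, 1 of 3 TTF arrays above the limit) and by 4.02 ± 0.85 against hepatocytes (0.011), and it differed by 3.08 ± 0.92 between hepatocytes and TTF (0.052). Cdx1 and Cdx4 were under the limit on every array of these groups.

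The TALE proteins (Pbx, Meis and Pknox) bind DNA together with Hox proteins. Of 8 measured, 1 was lower in iHep than in TTF (Pknox2, -1.69 ± 0.49, limma adjusted p = 0.043), and 1 lower in hepatocytes than in TTF (Pbx2, -1.25 ± 0.30, 0.02) and higher in iHep than in hepatocytes (Pbx2, 1.37 ± 0.28, 0.0086). Among the retinoic acid receptors, which switch on anterior Hox genes, Rarb had 70.4, 32.7, 188 and 218 on iHep arrays, 1089, 1128, 3195 and 2461 on hepatocyte arrays and 92.3, 46.3 and 42.5 on TTF arrays. Hepatocytes stood above both other groups. Rarb rose by 4.96 ± 0.67 in hepatocytes against TTF (0.001) and was lower in iHep than in hepatocytes (-4.16 ± 0.62, 0.0019). The other receptors, Rara and Rarg, were not called.

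Polycomb proteins keep Hox genes silent and trithorax proteins keep them active. Of 16 measured Polycomb genes, 1 was higher in iHep than in TTF (Jarid2, 1.32 ± 0.28, limma adjusted p = 0.0091), and 2 were lower in hepatocytes than in TTF (Pcgf2, -1.25 ± 0.36, 0.046, and Ring1, -1.06 ± 0.21, 0.008). Between iHep and hepatocytes 2 were higher (Jarid2, 1.20 ± 0.26, and Pcgf2, 1.30 ± 0.34). Of 8 trithorax and related genes, Men1 was higher in iHep than in hepatocytes (1.46 ± 0.31, 0.011) and all 8 were uncalled in both comparisons with TTF.

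The genes beside the clusters were also tested. Of the 24 nearest named genes, 3 on each side of each cluster, all 24 were uncalled between hepatocytes and TTF, and their median difference was -0.02. Over all genes 7.47% were called higher there and 4.91% lower. In iHep against TTF 2 were lower, against 6.52% of all genes, Skap1 on the Hoxb1 side of its cluster (-3.16 ± 0.61, limma adjusted p = 0.0059) and Lnpk on the Hoxd13 side of Hoxd (-1.29 ± 0.30, 0.016). In iHep against hepatocytes Lnpk was the 1 gene called lower (-1.14 ± 0.28, limma adjusted p = 0.021), against 7.5% of all genes. Of the 4 measured noncoding transcripts of the clusters, Hoxaas3 in the Hoxa cluster was higher in iHep than in hepatocytes (by 3.46, limma adjusted p = 0.041).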

How the data were processed

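RNA of 13 mouse cultures was hybridised on Agilent one-colour arrays with Cy3, per the labels. For 45018 features the authors deposited linear intensities, made with Agilent Feature Extraction 10.5.1.1 per the submitters' processing notes. Not given in the sources used here are the background step, any later normalization, and slide or scan batches. By the probe table, 33653 features have 1 gene symbol, 56 have several and 11309 none.

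From the deposited intensities, each array's log2 values were centred on its 75th percentile, then averaged over a gene's probes. Limits used a window of 101 features. A gene was under the limit on an array if all its probes were. A bound ("at least N-fold") divides the mean of the brighter group by the dim arrays' mean, each dim array entering at its limit or its level, whichever is higher. limma 3.58.1 under R 4.3.3 fitted 3 group means over 11 arrays with no covariate, and was tested on simulated data. Python 3.11.15 with pandas 2.3.3 handled the tables. MEF and TTF + 3TF stayed out of the fit. The number of arrays limits the precision.

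Members and lists were chosen with earlier results of these data known, and so was the split of the iHep arrays. Tests are given for called members and for the 3 uncalled members with the largest difference, single-array values for members past the fold, and from each other list at most 4 called members. Genes named beyond this were chosen after their values were seen. The alternatives covered scaling, floor, dim genes, probes, fit and replicates left out.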

Additional observations from a re-analysis of the deposited data

Results flagged for a closer look

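Hoxc5, a neck and thorax gene, was higher on iHep replicate 2, at a scaled intensity of 156, than on the other iHep arrays, at 65.9 to 75.3. On the log2 scale its gap to the nearest array was 0.845 of the group's whole range, above the 95% value of Dixon's test for 4 samples. It was the 1 case among 71 groups of 4 arrays examined, and chance marks about 1 in 20. iHep replicate 2 also had the highest limit of measurement, with a median of 31.4 against 8.50 to 18.97 on the others. Without it Hoxc5 remained called higher in iHep than in hepatocytes.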

How the results depend on the processing

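Of 1174 single-gene values under the alternatives, 1016 kept their direction and side of the threshold, 124 lost the threshold, 34 gained it and 0 changed sign after a call. The count of Hox genes lower in hepatocytes than in TTF (16) stayed within 1.5 times in all 25 alternatives. The share of all genes called lower was 2.35% to 10.1% there. The count higher in iHep than in hepatocytes (18) was 12 to 19 in the alternatives other than the replicate block. It was 12 from hepatocyte replicates 3 and 4 alone (4.06% of all genes) and 13 with a common floor (4.4%). The other counts start from 0 to 2 genes. The shares of all genes called in the same fit are given in brackets. Higher in iHep than in TTF (1) became 2 with dim genes left out (8.34%), the brightest probe (6.91%) and only the 2 groups compared (5.76%). It was also 2 with a variance trend (6.89%) and with hepatocyte replicates 1 and 2 (6.73%) or 3 and 4 (6.81%) alone. It became 6 with array weights (15.6%), 0 with iHep replicates 1 and 2 alone (7.65%), and 0 to 2 with 1 array left out (3.98% to 7.4%). Lower (2) became 1 with a common floor, only the 2 groups compared and either pair of hepatocyte arrays, 3 with array weights and with iHep replicates 3 and 4 alone, and 1 to 3 with 1 array left out (3 without iHep replicate 2). Higher in hepatocytes than in TTF (1) became 0 with quantile normalization (5.94%), no scaling (6.84%), a common floor (4.71%) and hepatocyte replicates 1 and 2 alone (9.28%). It became 6 with array weights (15.8%), 4 with hepatocyte replicates 3 and 4 alone (4.18%), and 0 to 1 with 1 array left out (3.84% to 7.95%). Lower in iHep than in hepatocytes (0) became 2 with array weights (13.2%) and 4 with hepatocyte replicates 3 and 4 alone (5.19%). Higher in TTF + 3TF (1) became 2 with the brightest probe. The cause was not tested.

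With median scaling the median difference of all genes was -0.09 (iHep against TTF), -0.33 (hepatocyte against TTF) and 0.22 (iHep against hepatocyte), and with the 75th percentile 0.07, 0.07 and -0.02. Under median scaling, 996 genes were higher and 1923 lower in hepatocytes than in TTF, against 1426 and 937, and 1832 higher and 1008 lower in iHep than in hepatocytes, against 1192 and 1432. The Hox counts were then 1 and 19, and 19 and 0 by limma.

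Replicate numbers shared between groups paired the arrays weakly at most. Deviations of same-numbered arrays correlated at 0.02 to 0.07 (iHep and TTF), -0.06 to 0.11 (hepatocyte and TTF) and 0.06 to 0.10 (iHep and hepatocyte). Between iHep and hepatocytes the deviations went by pairs of arrays. They correlated at 0.06 to 0.12 among replicates 1 and 2, at 0.05 to 0.10 among replicates 3 and 4, and at -0.10 to -0.03 across these pairs. Deviations from a group mean sum to 0 over its arrays, so negative values across pairs follow from positive values within them. What the arrays of a pair share is not given in the labels, so they may not be independent. With the replicate block, 1 Hox gene was higher and 1 lower in iHep than in TTF (3.51% of all genes each way), 0 higher (limma) and 11 lower in hepatocytes than in TTF (5.48% and 2.86%), and 10 higher and 1 lower in iHep than in hepatocytes (3.36% and 4.49%).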

Other observations

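TTF replicate 1 lay apart from both other TTF arrays over all features, by the rank correlations given above, and also for several posterior genes. It had 17266 for Hoxb9 against 6564 and 6792, 12359.6 for Hoxb13 against 1718 and 1870.0, and 3564 for Hoxc12 against 1339 and 1281. For Hoxc9 it was the lowest, at 1137 against 2557 and 2646.

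Hoxb2, a hindbrain and facial nerve gene, had 96.8 on iHep replicate 1 and 2946, 5298 and 6125 on the other iHep arrays, against 2272 to 5275 on the TTF arrays. Meis1, a Hox cofactor gene chosen after its values were seen, had 74.6, 44.2, 1155 and 553 on hepatocyte replicates 1 to 4, with the same replicates highest as for Hoxa5. The noncoding transcript Hoxaas3 had 3.96, 3.06, 71.0 and 54.9 on these arrays, above the limit on 2 of them.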
